A study of Homo sapiens with 6 samples.

Results

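The 10 genes SYCP1, SYCP2, SYCP3, HORMAD1, HORMAD2, SYCE1, SYCE2, STAG3, SMC1B and REC8, which encode the synaptonemal complex and the meiotic chromosome axis, were followed in SUM159 cells with and without decitabine. They were chosen by name as a family, and a gene was measured where the platform annotation gave its symbol as the single symbol of an array feature. This held for 9 of the 10 genes, out of 14884 genes with a named feature, and SYCE1 was not analysed here. Each of the 9 had 1 named feature, so no choice between features by signal had to be made. The family was put forward with the large differences of SYCP3, HORMAD1 and SYCP2 in these same arrays already known. The values of these 3 genes, and any count that includes them, are therefore a description, and no p-value is given for them.

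SUM159 is a well-known line of human triple-negative breast cancer cells, so all results come from a single line. The decitabine group had 3 samples of cells kept for 72 h in 1 µM decitabine with daily medium changes, and the untreated group had 3 samples of cells kept for 72 h in medium labelled NT. A dose of 1 µM also stands in the titles of the untreated samples but was not read as a treatment, and whether their medium held solvent is not stated. Decitabine is an analogue of deoxycytidine. Once incorporated during replication it traps DNA methyltransferases, which lowers DNA methylation in dividing cells. Total RNA was measured on 1 single-colour expression array per sample, and values are on the log2 scale of the deposited table.

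In meiosis each pair of sister chromatids is folded into loops along a protein axis. The axis is built of meiotic cohesin, in which STAG3, REC8 and SMC1B take the place of mitotic subunits, together with SYCP2, SYCP3 and the HORMA-domain proteins HORMAD1 and HORMAD2. Homologous chromosomes are then zipped together by SYCP1 transverse filaments and a central element that contains SYCE1 and SYCE2. Several of these genes are normally confined to germ cells, DNA methylation at the promoter is a known means of silencing several germ cell genes, and HORMAD1 and SYCP3 are among those found expressed in some tumours.

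Promoters of 4 measured genes are shown, because decitabine acts on CpG dinucleotides, which are set in capitals. Sequences are from RefSeq (GRCh38.p14), give the 250 bases before the annotated start 5′ to 3′ on the gene's strand, and were found for 9 of the 10 genes, all but HORMAD1. SYCP3, SYCP2 and STAG3 were higher after decitabine, and SYCP1 is the gene of the family with the fewest CpGs in this window. These 4 were picked for display after their values were seen, and windows of the other measured genes are given by their counts. STAG3 has 2 annotated starts, whose windows share bases, and which of them the array feature reads was not tested.
SYCP3, chr12:101739463-101739712, minus strand: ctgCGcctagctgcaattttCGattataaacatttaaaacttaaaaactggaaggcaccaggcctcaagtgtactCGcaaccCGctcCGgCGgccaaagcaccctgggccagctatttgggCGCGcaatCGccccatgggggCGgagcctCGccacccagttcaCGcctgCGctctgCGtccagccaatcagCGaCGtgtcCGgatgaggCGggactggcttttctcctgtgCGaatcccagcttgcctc
SYCP2, chr20:59933638-59933887, minus strand: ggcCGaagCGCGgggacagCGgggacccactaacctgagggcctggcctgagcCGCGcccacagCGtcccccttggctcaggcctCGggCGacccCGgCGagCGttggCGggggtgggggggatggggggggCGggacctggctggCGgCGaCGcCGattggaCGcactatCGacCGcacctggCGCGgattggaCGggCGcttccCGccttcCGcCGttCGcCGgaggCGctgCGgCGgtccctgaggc
STAG3, first start, chr7:100177474-100177723, plus strand: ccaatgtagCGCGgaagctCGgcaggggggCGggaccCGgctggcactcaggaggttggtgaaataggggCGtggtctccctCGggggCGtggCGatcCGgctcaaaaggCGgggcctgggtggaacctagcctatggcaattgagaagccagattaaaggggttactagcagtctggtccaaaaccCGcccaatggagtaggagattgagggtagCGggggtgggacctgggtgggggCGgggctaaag
STAG3, second start, chr7:100177668-100177917, plus strand: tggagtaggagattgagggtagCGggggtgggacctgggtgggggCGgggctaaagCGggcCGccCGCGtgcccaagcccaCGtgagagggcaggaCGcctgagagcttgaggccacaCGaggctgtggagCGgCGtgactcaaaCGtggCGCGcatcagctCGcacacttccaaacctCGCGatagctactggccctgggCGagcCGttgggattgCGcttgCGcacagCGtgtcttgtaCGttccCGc
SYCP1, chr1:114854613-114854862, plus strand: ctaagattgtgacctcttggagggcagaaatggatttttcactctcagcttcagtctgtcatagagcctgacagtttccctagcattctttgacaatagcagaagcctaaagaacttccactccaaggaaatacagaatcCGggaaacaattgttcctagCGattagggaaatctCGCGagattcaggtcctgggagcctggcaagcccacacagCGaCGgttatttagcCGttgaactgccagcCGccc

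The SYCP3 window held 19 CpGs, the SYCP2 window 33 and the STAG3 windows 14 and 24, while the SYCP1 window held 8. Over the 35116 promoters of the table the median was 11, so SYCP1 alone lay below it. Genes whose values passed no test were also CpG-rich, with 32 CpGs at SYCE2, 29 at SMC1B, 22 at HORMAD2 and 21 at REC8. Among measured genes with a window, the counts of those that were higher and of the others thus overlapped. HORMAD1 had no window, DNA methylation was not measured, and a part of CpG number in the changes was not tested.

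A pair of motifs known from repressors of germ cell genes was searched for, the E2F core TCCCGC on both strands and the E-box CACGTG, which reads the same on both strands. TCCCGC was present in 10 of the 11 windows of the family, SYCP1 being the exception, against 23.5% of all promoters and 42.0% of promoters above the median CpG number. Counted from the start, it began at -41 at SYCP3, at -119 and -47 at SYCP2, and at -221 and -6 from the first and second start of STAG3. Among genes that did not pass, it began at -75 at HORMAD2, -14 at REC8, -120 and -25 at SMC1B and -39 at SYCE2. TCCCGC was thus present at genes that rose and at genes that did not pass, and its part in the changes was not tested. CACGTG was present in 2 of the 11 windows, the second start of STAG3 and 1 of the starts of SYCE1, against 6.34% of all promoters and 9.08% of promoters above the median CpG number. In no window did matches of the motifs overlap. These are matches of letters, and binding was not measured.

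Arrays of the same replicate number resembled each other, and both arrays numbered 1 had higher medians (over all 48226 features), at 2.98 and 3.03 in decitabine and untreated cells against 2.29 to 2.42 on the other arrays. All 9 genes had their highest untreated value on the array numbered 1. Once each array was centred on its median, 3 genes had their highest untreated value on each of the 3 arrays. Differences were fitted within same-numbered pairs, as set by the rule used to choose the family. limma was used with the replicate number as a block and all 14884 genes in the fit. Genes with a Benjamini-Hochberg adjusted p under 0.05 are called. As a check of the line, chosen after values were seen, the vimentin gene VIM, a marker of mesenchymal cells such as SUM159, lay at 8.66, 8.79 and 8.97 in decitabine-treated cells, against 9.68, 9.13 and 9.27 in untreated cells, and the oestrogen receptor gene ESR1 lay at 1.50 to 2.34, against 1.78 to 2.43, below every array's median. Other luminal markers, also named after values were seen, varied. GATA3, at 5.32 to 5.79 against 5.49 to 5.74, and EPCAM, at 3.63 to 4.37 against 2.55 to 3.51, lay above every array's median. PGR lay below every array's median, and FOXA1 lay on both sides.

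SYCP3 and HORMAD1, both parts of the chromosome axis, were the most different genes of the family. SYCP3 (Entrez Gene 50511, chromosome 12) encodes a protein that forms the lateral elements of the synaptonemal complex. Its values were 8.36, 7.64 and 7.63 in decitabine-treated cells, against 2.00, 1.78 and 1.37 in untreated cells. The groups were far apart, and SYCP3 had the highest change of all 14884 genes, 6.16 on the log2 scale (SE 0.15, 95% interval 5.80 to 6.52), or 71.5-fold. Same-numbered pairs differed by 6.36, 5.86 and 6.26. All untreated values of SYCP3, and of HORMAD1, SYCP2 and STAG3 below, lay under their array's median. The folds of these genes therefore depend on dim untreated values.

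HORMAD1 (84072, chromosome 1) encodes an axis protein that promotes meiotic DNA breaks and the check on unsynapsed chromosomes. It lay at 7.65, 7.12 and 7.24 in decitabine-treated cells, against 2.62, 1.68 and 1.36 in untreated cells. The change was 5.45 (SE 0.18, 95% interval 5.00 to 5.90), or 43.7-fold, the third highest of all genes. The 3 decitabine values lay within a narrower range than the untreated ones (SD 0.28 and 0.65, n = 3 each).

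SYCP2 (10388, chromosome 20), the partner of SYCP3 in the lateral element, was at 5.05, 4.38 and 3.63 in decitabine-treated cells, against 1.98, 0.86 and 1.34 in untreated cells. The groups did not overlap, but the decitabine values were more spread than those of SYCP3 or HORMAD1 (SD 0.71 against 0.42 and 0.28, n = 3 each). Pairs differed by 3.07, 3.52 and 2.29, and the fitted change was 2.96 (SE 0.24, 95% interval 2.37 to 3.55), or 7.78-fold.

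HORMAD2 (150280, chromosome 22), the paralogue of HORMAD1, did not pass the test. Its values were 1.61, 1.78 and 1.07 in decitabine-treated cells, against 2.08, 1.78 and 1.24 in untreated cells, all below the median of their array. The groups overlapped, and the change was -0.21 (SE 0.14, 95% interval -0.56 to 0.13, limma adjusted p = 0.393). Its change and that of HORMAD1 lay far apart, which is a description, since HORMAD1 was put forward with its difference known. On these dim features no measure of background was used, so untreated levels of about 1 to 3 show a value of the table, not that a transcript was present.

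**Figure D1:**
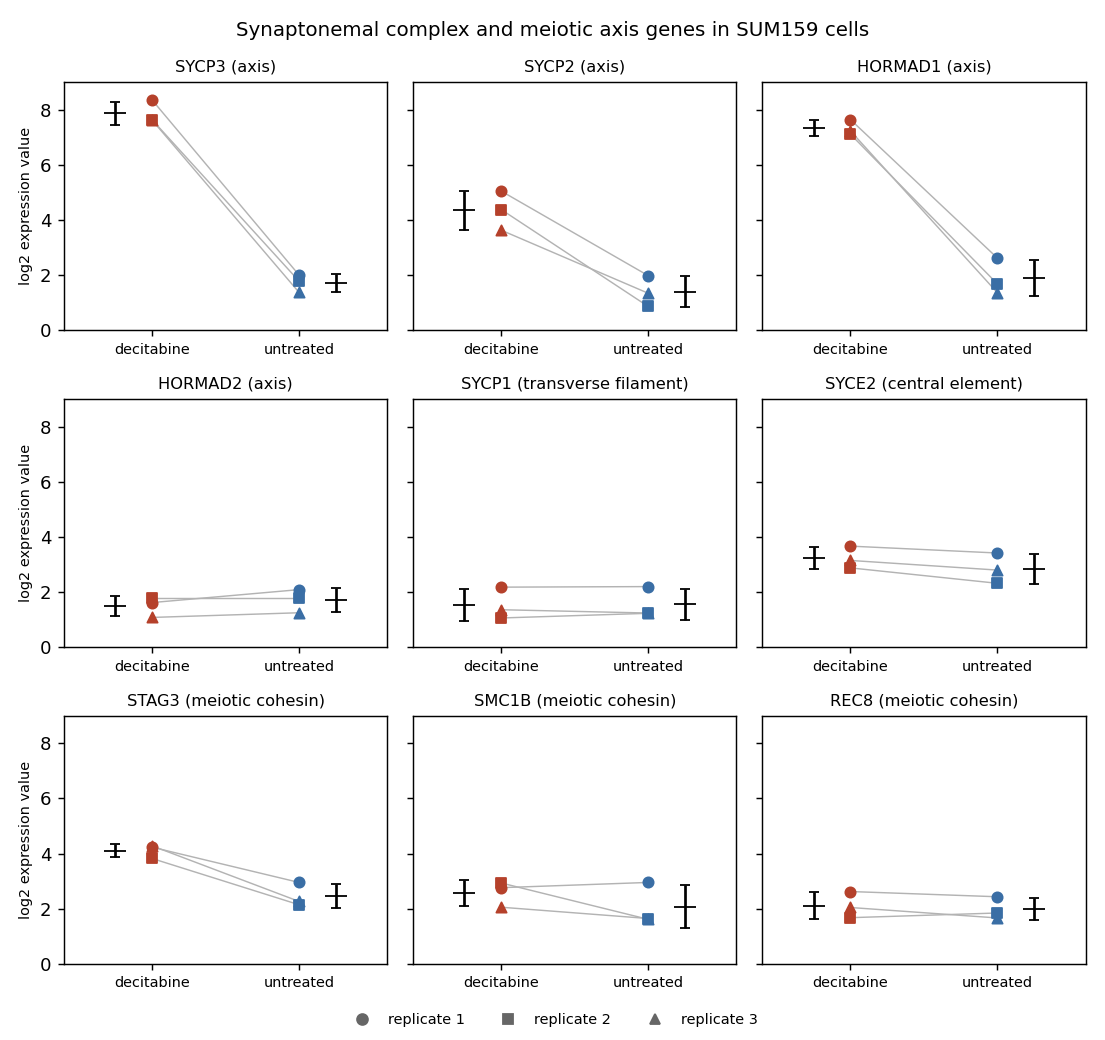
Log2 expression values (vertical axis) of the 9 measured genes in decitabine-treated cells (left, red) and untreated cells (right, blue); symbols give the replicate number, grey lines join same-numbered arrays, and black marks beside the points are the mean ± SD of 3 arrays. SYCP3, HORMAD1, SYCP2 and STAG3 lie higher in all 3 decitabine samples than in any untreated sample, and the groups overlap for the other 5 genes.

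Of the genes that join homologous axes, neither SYCP1 nor SYCE2 passed the test. SYCP1 (6847, chromosome 1), which forms the transverse filaments, was at 2.17, 1.05 and 1.35 in decitabine-treated cells, against 2.19, 1.22 and 1.23 in untreated cells. The groups overlapped fully, all 6 values were below their array's median, and the change was -0.02 (SE 0.13, 95% interval -0.34 to 0.29, limma adjusted p = 0.934). SYCE2 (256126, chromosome 19), a central element protein, was at 3.66, 2.87 and 3.14 in decitabine-treated cells, against 3.41, 2.31 and 2.79 in untreated cells. It was higher in all 3 pairs, by 0.25, 0.56 and 0.35, yet the groups overlapped and it missed the threshold (change 0.39, SE 0.13, 95% interval 0.07 to 0.70, limma adjusted p = 0.112, unadjusted p = 0.0243).

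Further structural genes were taken from a list of 8, of which 6 were found under the listed symbol. These were SYCE3 and TEX12 of the central element, SYCE1L, SYCP2L, the meiotic cohesin subunit RAD21L1 and the cohesin protector SGO2. SIX6OS1 was measured under its other symbol C14orf39 and is left out of the counts and the median of this list. Named after its value was seen, it had a change of -0.05. In the limma fit 0 of the 6 passed with or without the block (2 had an unadjusted p under 0.05 with it), and their median change was 0.09 against -0.02 over all genes. On every array 5 of the 6 lay below the median. The widest change was that of SYCE1L, -0.40 (SE 0.15, adjusted p = 0.135), and SYCP2L, a paralogue of SYCP2 named after its value was seen, had a change of 0.05 (SE 0.12, adjusted p = 0.840).

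Of the 3 meiotic cohesin subunits, STAG3 was higher after decitabine. STAG3 (10734, chromosome 7) replaces STAG1 or STAG2 in meiotic cohesin. It was at 4.23, 3.82 and 4.28 in decitabine-treated cells, against 2.95, 2.14 and 2.26 in untreated cells. The groups did not overlap, and STAG3 rose by 1.66 (SE 0.17, 95% interval 1.24 to 2.08, limma adjusted p = 0.00417), or 3.16-fold, with pairs at 1.28, 1.68 and 2.02. Without the block its adjusted p was 0.0195, and it then missed the threshold when any 1 array other than untreated replicate 1 was left out (0.0564 to 0.104).

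SMC1B (27127, chromosome 22), the meiotic form of SMC1A, was at 2.76, 2.93 and 2.05 in decitabine-treated cells, against 2.95, 1.61 and 1.64 in untreated cells. Pair 2 differed by 1.32 and pair 3 by 0.41, whereas pair 1 differed by -0.19. The groups overlapped, and the change of 0.51 (SE 0.28, 95% interval -0.17 to 1.20) had an adjusted p of 0.298 in the limma fit. It was 0.11 without replicate 2, so that pair carried most of it. REC8 (9985, chromosome 14), the meiotic kleisin that holds sister chromatids together, was at 2.62, 1.67 and 2.04, against 2.43, 1.84 and 1.66 in untreated cells, with a change of 0.13 (SE 0.15, 95% interval -0.23 to 0.50, adjusted p = 0.621).

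The mitotic counterparts of these subunits, named after their values were seen, did not pass the test. STAG1 changed by -0.25 (SE 0.13, limma adjusted p = 0.263), STAG2 by -0.25 (SE 0.13, adjusted p = 0.290), SMC1A by 0.24 (SE 0.12, adjusted p = 0.261) and the kleisin RAD21 by 0.08 (SE 0.12, adjusted p = 0.719). Of 15 measured genes of mitotic cohesin and its regulators, out of 17 listed, 2 rose and 0 fell, where 7.79% of all genes were called higher, and the median change of the 15 was -0.11. With so few genes this is near the share over all genes. These were ESCO2, an acetyltransferase that secures cohesion in S phase, at 1.29 (SE 0.13, adjusted p = 0.00381), and CDCA5, the cohesin-stabilising protein sororin, at 0.50 (SE 0.12, adjusted p = 0.0493, and 0.320 without the block).

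**Figure D2:**
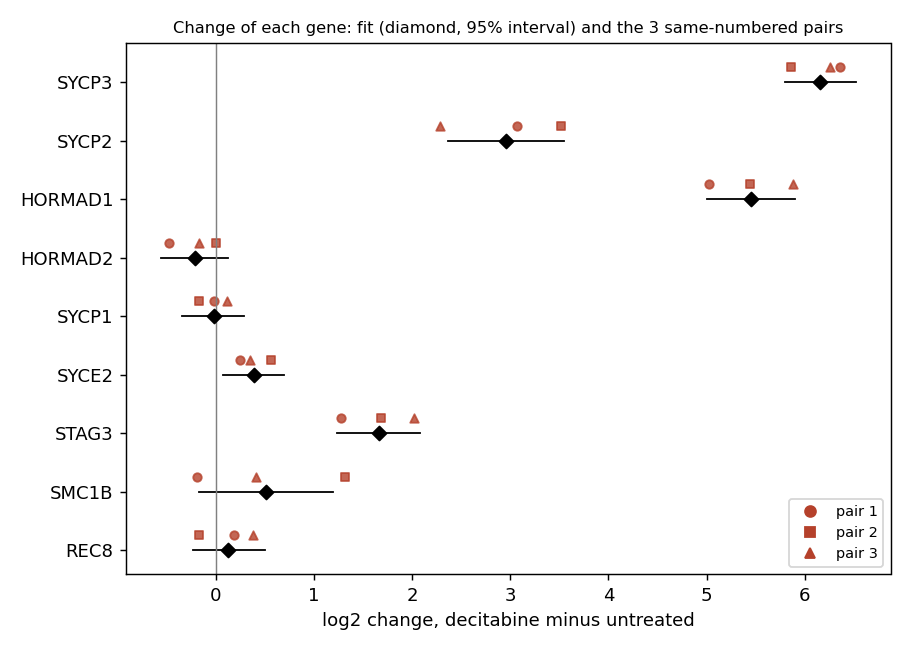
Log2 change, decitabine minus untreated (horizontal axis), of the 9 measured genes; black diamonds and lines are the limma estimate with the replicate block and its 95% interval, and red symbols are the differences of the 3 same-numbered pairs. SYCP3 (6.16), HORMAD1 (5.45), SYCP2 (2.96) and STAG3 (1.66) lie to the right of 0 in every pair, and SMC1B spans -0.19 to 1.32. For SYCP3, HORMAD1 and SYCP2 the intervals are a description and not a test.

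Altogether 4 of the 9 measured genes passed the threshold, all upward, where 7.79% of all genes were called higher, 5.37% were called lower and 13.2% were called in either direction. The same 4 genes passed without the block, where 2.01% of all genes were called higher, 1.02% lower and 3.03% in either direction. Groups did not overlap for these 4 genes, as for 11.3% of all genes in the upward direction. Since the family was put forward with 3 of the 4 known, nothing is read from the count. With the 2 arrays of any 1 replicate number left out, 0 of the 9 genes and 0 of all genes passed (limma, unadjusted p under 0.05 for 4 or 5 of the 9, a count that is a description too).

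The 4 genes did not follow a common order over the pairs. The widest difference was in pair 1 for SYCP3, in pair 2 for SYCP2, and in pair 3 for HORMAD1 and STAG3. The median change of the 9 genes was 0.51, against -0.02 for all genes, and it was 0.25, 1.32 and 0.41 in the 3 pairs. RNA of whole cultures was measured, so more cells with a transcript and more transcript per cell cannot be told apart.

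**Figure D3:**
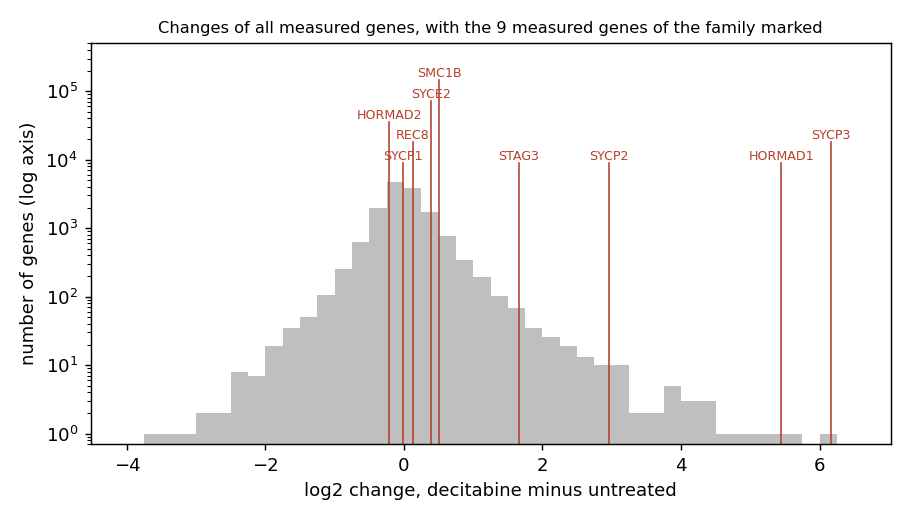
Histogram of the log2 change, decitabine minus untreated (horizontal axis), over 14884 genes (vertical axis, number of genes on a log scale), with red lines at the 9 genes of the family. SYCP3 and HORMAD1 stand at the upper end, SYCP2 and STAG3 in the upper tail, and the other 5 genes, from -0.21 to 0.51, within the bulk.

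Genes that act on the axis during meiotic recombination were followed next. Of 30 listed genes 20 were measured. Of these 8 rose, none fell and 12 did not pass, where 7.79% of all genes were called higher. Their median change was 0.41 against -0.02 over all genes. The list was chosen with earlier results of these data known, so its counts and median are a description. Without the block, 2 of the 20 rose, MEIOB and TRIP13, where 2.01% of all genes were called higher. MEIOB, a single-strand DNA binding protein needed for meiotic recombination, was at 5.71, 4.90 and 4.21 in decitabine-treated cells, against 1.98, 1.54 and 1.61 in untreated cells. Its groups were well apart, and it rose by 3.23 (SE 0.23, limma adjusted p = 0.00138).

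C1orf146, known as SPO16 in mice, and SHOC1 encode partners that promote crossovers. C1orf146 was at 3.56, 2.65 and 1.96 in decitabine-treated cells, against 1.62, 1.08 and 0.90 in untreated cells, and rose by 1.52 (SE 0.19, limma adjusted p = 0.00710, and 0.102 without the block). SHOC1 was at 4.05, 3.49 and 2.19, against 2.60, 1.53 and 1.20 in untreated cells. Its groups overlapped although every pair differed in the same direction, and it rose by 1.47 (SE 0.20, adjusted p = 0.00943, and 0.237 without the block).

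The other 5 genes that rose are named after their values were seen. TRIP13, the ATPase that remodels HORMA-domain proteins and takes HORMAD1 off the axis, was at 9.39, 9.31 and 9.21 in decitabine-treated cells, against 8.44, 7.98 and 7.94 in untreated cells. It rose by 1.18 (SE 0.14, limma adjusted p = 0.00579), and TRIP13 also acts in the mitotic checkpoint of dividing cells. IHO1, which binds HORMAD1 and brings the break machinery to the axis, rose by 0.87, HSF2BP, a BRCA2 partner in meiosis, by 0.79, the mismatch repair protein MLH3 by 0.79 and the crossover factor RNF212 by 0.56, with adjusted p of 0.0132 to 0.0345. Without the block their adjusted p was 0.158 to 0.606. SPO11, which makes the breaks and is also named after its value was seen, had a change of 0.05 (SE 0.14, adjusted p = 0.846). It lay at 1.03 to 1.51 in decitabine-treated cells, against 0.98 to 1.51 in untreated cells, below every array's median. The gene of the initiating enzyme was thus not among those that passed, but little can be read from so dim a feature.

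Lists of meiotic entry and of telomere attachment had 1 gene each that rose and none that fell, where 7.79% of all genes were called higher, so nothing is read from either count. Of 3 measured genes of meiotic entry DAZL, a germ cell RNA-binding protein, rose by 1.44 (SE 0.15, limma adjusted p = 0.00448). STRA8, the retinoic acid target that starts meiosis, named after its value was seen, changed by -0.04 (SE 0.12, adjusted p = 0.881). STRA8 lay below every array's median. Of 7 measured genes of telomere attachment CDK2, which also drives S phase in somatic cells, rose by 1.21 (SE 0.12, adjusted p = 0.00416). Medians of these lists were 0.04 and 0.18.

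Of 11 measured genes of germ cell identity DAZL and DDX4 rose and none fell, where 7.79% of all genes were called higher (1 rose without the block, where 2.01% were), and the median change was -0.06. DDX4, the germ cell RNA helicase also called VASA, was at 3.89, 3.30 and 3.31 in decitabine-treated cells, against 2.58, 1.20 and 2.04 in untreated cells, and rose by 1.56 (SE 0.20, limma adjusted p = 0.00743, and 0.0670 without the block). PRC1.6 is a Polycomb complex that represses germ cell genes in somatic cells. Of its 12 measured genes 2 rose and 0 fell, where 7.79% of all genes were called higher, at a median of 0.31: HDAC1 by 0.79 (SE 0.14, adjusted p = 0.0190) and PCGF6 by 0.67 (SE 0.14, adjusted p = 0.0343), and neither passed without the block (0.122 and 0.255).

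Markers of other cells also moved in part. Among 5 measured luminal breast markers EPCAM rose by 1.10 (SE 0.14, limma adjusted p = 0.00829, and 0.127 without the block). Sums here add the log2 values of a list on each array and are not summed amounts of RNA. For the luminal list they were 15.14 to 18.49 in decitabine-treated cells, against 14.49 to 16.79 in untreated cells. Among 3 measured leukocyte markers CD14 rose by 0.72 (SE 0.14, adjusted p = 0.0247, and 0.115 without the block), with sums of 11.55 to 12.56, against 10.48 to 11.25 in untreated cells. Among 3 endothelial markers 0 passed in limma (1 had an unadjusted p under 0.05), PECAM1 being the most changed at 0.44 (SE 0.17, adjusted p = 0.165), and sums were 7.87 to 8.61, against 7.20 to 9.28 in untreated cells. Of 8 markers listed for the line itself KRT5 rose by 1.75 (SE 0.35, adjusted p = 0.0295) and EGFR fell by 1.15 on the log2 scale (adjusted p = 0.00504). KRT5, at 2.97, 2.40 and 2.35, and KRT14, at 2.62, 2.32 and 2.30, were dim in untreated cells, so neither marked the untreated line. Log2 values of this list summed to 51.82 to 52.59, against 50.60 to 52.76 in untreated cells. No marker was listed at 0, and the part of any such change in the results above was not tested.

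**Figure D4:**
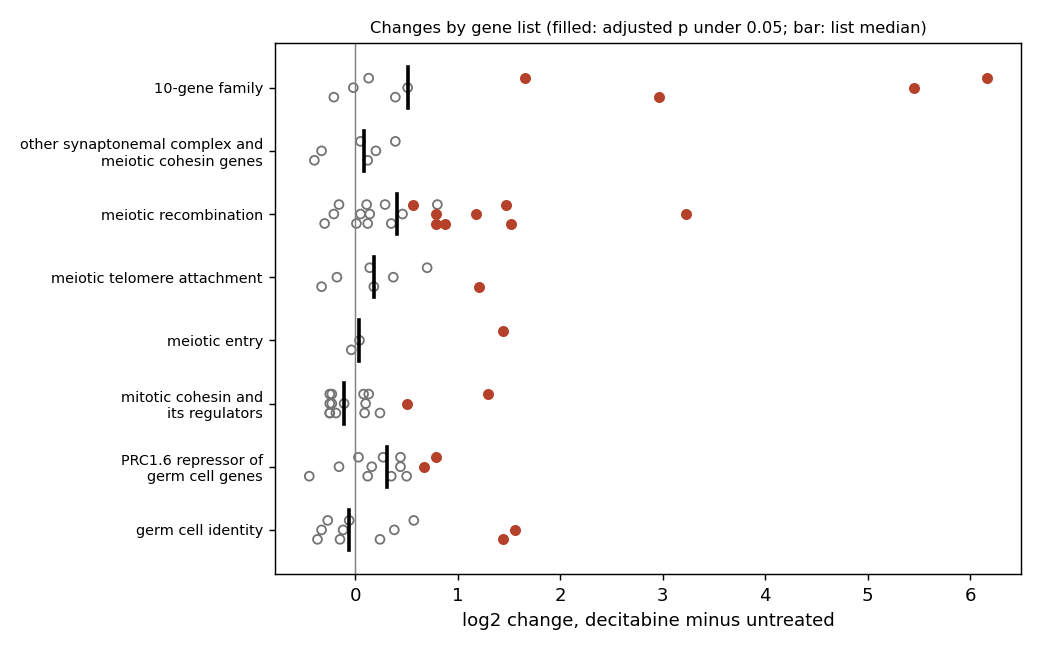
Log2 change, decitabine minus untreated (horizontal axis), of each measured gene of the 10-gene family and of 7 lists of related genes; filled points passed an adjusted p of 0.05 in the limma fit with the replicate block, open points did not, and black bars are list medians. Of 20 recombination genes 8 are filled, and none of the 6 other structural genes is. The family and the lists were chosen with earlier results of these data known, so these counts are a description. C14orf39 (SIX6OS1), measured under a symbol other than the listed one, is not shown.

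Profiles over the 6 arrays, each centred on its own mean, were compared by Euclidean distance as a description. Nearest to SYCP3 were HORMAD1 (distance 1.06), TKTL1 (1.37), STOM (1.59), MAEL (1.63) and GCNA (2.07), where MAEL is a factor of transposon silencing in germ cells and GCNA a germ cell nuclear protein. Nearest to HORMAD1 were MAEL (0.75), STOM (1.03), SYCP3 (1.06), TKTL1 (1.08) and MT1L (1.28). These genes averaged 5.89 to 8.17 in decitabine-treated cells, against 1.43 to 2.69 in untreated cells, and the distance mostly reflects that contrast.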

How the data were processed

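Values for 6 arrays were read from the deposited table, made by the authors in Transcriptome Analysis Console, a name taken from the submitters' processing notes. These deposited values were taken to be log2 expression, since they ran from 0.17 to 12.89 with 2 decimals. Log base, normalization, filters, software version and build: not given in the sources used here. Hence folds rest on that reading. Of 48226 features, 16098 carried a single symbol and 32128 were without a name here. Entrez Gene IDs gave current RefSeq symbols (GRCh38.p14, all 16098 matched), and the feature with the highest mean stood for each of 14884 genes. Signal over background was not assessed, and precision is limited by the number of arrays.

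The treatment label gave the groups, and the titles gave the replicate numbers. limma 3.58.1 in R 4.3.3 (lmFit, eBayes) was fitted to all 14884 genes with the replicate number as a block, two-sided, with Benjamini-Hochberg adjustment over all of them. Deviations from group means correlated at 0.682, 0.595 and 0.558 between same-numbered arrays and at -0.006 to -0.483 between the others. Since deviations cancel out within a group for each gene, the negative sign between the others is partly built in. Pairing by the numbers in the titles was set by the rule used to choose the family, not drawn from these correlations. Exactly identical values were also more frequent within such pairs (6.44%, 7.94% and 8.28%) than between differently numbered decitabine and untreated arrays (0.42% to 0.83%). The origin of these ties was not tested, so what the pairing reflects is not known. Whether samples came from separate cultures is not stated, so p-values reflect only their spread, possibly a technical one. The fit was tested on simulated data.

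The 10 genes, the related lists and the alternatives were chosen with earlier results of these data known. Lists are described by counts and medians. In each list all called genes are named if at most 6 were called, otherwise the 3 with the widest rise and the 3 with the widest fall, and with none called the most changed one. The 5 genes nearest in profile to SYCP3 and to HORMAD1 are named, and names outside this rule are marked in the text as chosen after their values were seen. Alternatives were no block, quantile normalization, median centring, leaving out the dimmer 50% of genes, a prior variance with a mean trend, testing every feature, averaging features, and leaving out each replicate number. Leaving out single arrays without the block was added after seeing the data.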

Additional observations from a re-analysis of the deposited data

How the results depend on the processing

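Of the 9 genes, 4 passed under quantile normalization, median centring, a mean trend in the prior variance, testing every feature, averaging features and no replicate block. With the dimmer 50% of genes left out 2 passed, SYCP3 and HORMAD1, the only genes of the family kept. They were kept through their decitabine values, so this says nothing of stability. Leaving out both arrays of any replicate number left 0 genes past the threshold in the family, the lists and the whole table, with 2449 to 3514 of all genes at an unadjusted p under 0.05 in limma. Over all genes 1959 passed in the fit with the block, 451 with no replicate block and 1188 with every feature tested, and among the genes of the 7 related lists, cell type markers not counted, 15 and, with no replicate block, 5. With single arrays left out and no replicate block, counts were 2 to 4 in the family, 278, 130 and 199 over all genes without decitabine replicates 1, 2 and 3, 477, 140 and 188 without untreated replicates 1, 2 and 3, and 1, 2 or 6 in the 7 lists. Counts in the family are a description, as 3 of its genes were known to differ in these arrays. Changes over all alternatives were 5.92 to 6.31 for SYCP3, 5.19 to 5.82 for HORMAD1, 2.61 to 3.32 for SYCP2 and 1.48 to 1.91 for STAG3. The sign was opposite to that of the full fit under 4 alternatives for SYCP1 and 2 for REC8, with neither passing the test.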
